A study of Canis lupus familiaris with 60 samples.

Results

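ADAMTS4, MMP9 and TIMP1 are 3 genes that act on the extracellular matrix of the skin: a pair of secreted metalloproteinases and an inhibitor of such enzymes. They were measured with 7 array probes, of 60068 probes in all. A probe belonged to ADAMTS4 when it carried the array identifier TC69822, and to MMP9 or TIMP1 when it carried a dog RefSeq transcript of that gene. The RefSeq gene table does not pair TC69822, an assembled transcript fragment, with a gene, and its name comes from the study's list of 24 hr differences, which matched the fragment to the human ADAMTS4 transcript. ADAMTS4 had 1 probe, MMP9 had 4 and TIMP1 had 2. Each gene is described by its brightest probe, and its other probes are given beside it.

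Matrix metalloproteinases and their relatives are zinc enzymes that cut proteins of the tissue scaffold. ADAMTS4 cleaves the large proteoglycans aggrecan and versican, which bind hyaluronan. MMP9, or gelatinase B, degrades denatured collagen and basement membrane collagen, and is stored in granules of neutrophils and made by macrophages and activated keratinocytes. TIMP1 is a secreted protein that blocks the active site of many metalloproteinases, MMP9 among them, and is also made by fibroblasts and macrophages of inflamed or healing skin.

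The skin came from 12 Beagles of 2 to 3 years, of which 6 had been sensitized through the skin to *Dermatophagoides farinae*, a house dust mite, and 6 were nonsensitized controls. The sensitized dogs were 4 males and 2 females and the controls 2 males and 4 females, so that sex was not balanced between them. The side of the chest was shaved 4 days before the test, and each dog then carried patches with 75 mg of mite paste (the allergen site) and with 50 μl of saline. Each dog gave 5 biopsies, 1 of untreated skin at 0 hr and 1 of each site at 6 hr and at 24 hr, which makes 10 groups of 6 arrays. The sensitization was experimental, with weekly applications of mite to the skin for 8 wk, and all dogs shared the same housing and food. The same dogs appear in all groups of their kind.

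The array of the 24 hr allergen site of sensitized dog 2839, specimen 14, was left out as in the methods of the study because of its poor RNA and low signal, so that 59 arrays were compared and that group held 5. The median processed signal of these arrays ranged from 81.6 to 146.1 intensity units, and between 68.85% and 80.15% of spots were well above background. The number of arrays, not a read depth, limits the precision. Of the markers of skin, KRT1 and COL1A1, genes of keratinocytes and fibroblasts, were at 15.94 or more and at 14.29 or more (log2) on every array. In whole biopsies, more cells of a kind and more RNA per cell cannot be told apart.

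Levels are given as scaled log2 signals, in which 1 unit is a 2-fold difference. A difference was called when its adjusted p in limma, over all 45972 probes that passed the filter on dim signals, was below 0.05 and its size at least 1.5-fold. Of the 7 probes, 5 passed the filter, and all 5 were well above background on all 59 arrays. The other 2 probes, both of MMP9, were well above background on 2 and on 0 arrays, with signals no higher than 67.0 and 13.1 units, and they gave no values. None of the spots of the 3 genes was marked as an outlier.

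**Figure D1:**
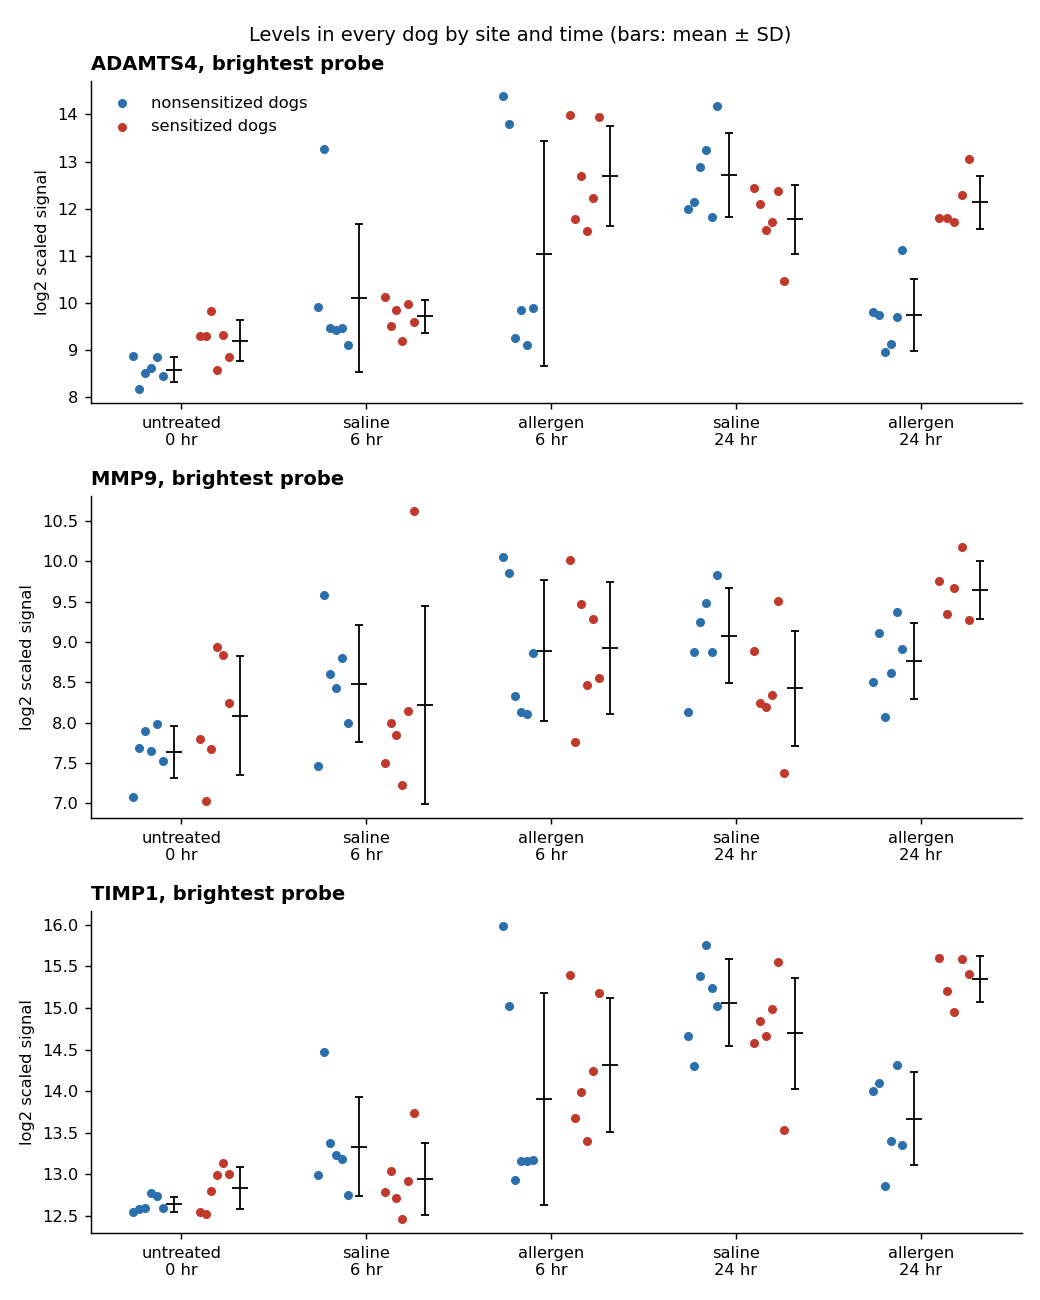
Scaled log2 signal of the brightest probe of ADAMTS4, MMP9 and TIMP1 (vertical axes) in each dog at each site and time (horizontal axis). Blue points are nonsensitized and red points sensitized dogs, and the black bars give the mean and SD of the 6 dogs (5 at the sensitized 24 hr allergen site). At 24 hr, the median of the nonsensitized dogs was 12.52 at the saline and 9.71 at the allergen site for ADAMTS4 and 15.13 and 13.70 for TIMP1, against 11.90 and 11.81 and against 14.76 and 15.41 in the sensitized dogs.

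In untreated skin, the 3 genes did not pass the limits between the dog groups. ADAMTS4 had a mean of 9.19 ± 0.43 (SD, n = 6) in sensitized and of 8.57 ± 0.26 (SD, n = 6) in nonsensitized dogs. Its difference of 0.62 had a 95% interval from -0.61 to 1.85. MMP9 had 8.09 ± 0.74 against 7.63 ± 0.32 and TIMP1 12.83 ± 0.25 against 12.64 ± 0.09 (SD, n = 6 each). The 2 groups overlapped for each gene, and in all 45972 probes the share called in this comparison was 0.00218%, a single probe.

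The main comparison of the study was the interaction at 24 hr, which sets the step from saline to allergen in sensitized dogs against the same step in nonsensitized dogs. ADAMTS4 and TIMP1 were higher in this sense, and MMP9 did not pass the limits. The interaction of ADAMTS4 was 3.34 on the log2 scale (SE 0.89), a 10.1-fold difference (limma, adjusted p = 0.043). ADAMTS4 and TIMP1 are both in the study's list of 24 hr differences, which was chosen on these arrays, so that their direction in this comparison is no independent evidence. The same holds for the comparisons of their 24 hr sites below, which share these values. The interaction of TIMP1 was 2.05 (SE 0.52), or 4.14-fold (limma, adjusted p = 0.0331), and its other probe gave 2.23 (adjusted p = 0.0324). That of MMP9 was 1.54 (SE 0.59, limma, adjusted p = 0.188), and its other probe gave 1.60 (adjusted p = 0.175). Of all probes tested, 0.94% were called, 432 in number, or 15 without dog 2855. The call of ADAMTS4 was kept in 9 of 13 other settings and in 2 of 12 fits with a dog left out. That of TIMP1 was kept in 11 of 13 and in 4 of 12.

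The interaction of ADAMTS4 came mostly from the nonsensitized dogs, in which the aggrecanase was lower at the allergen site than at the saline site. At 24 hr, their saline sites ranged from 11.83 to 14.17 with a median of 12.52, and their allergen sites from 8.95 to 11.12 with a median of 9.71. The 2 kinds of site did not overlap. In intensity, this is a median signal of 7606 against 970.7 units. The allergen site was lower in 6 of 6 dogs, by 2.14 to 4.13 on the log2 scale. In the group means ADAMTS4 was lower there by 2.98 (SE 0.61), which is 7.88-fold (limma, adjusted p = 0.00402). Of all probes, 0.766% were called in this comparison, a count of 352 that was 94 without dog 2802 and 119 without dog 2800.

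In the sensitized dogs the 24 hr sites overlapped for ADAMTS4. The saline sites ranged from 10.47 to 12.43 with a median of 11.90. The allergen sites were at 11.80 in dog 2838, 11.81 in dog 2840, 11.71 in dog 2841, 12.28 in dog 2853 and 13.05 in dog 2855. The allergen site was higher in 3 of 5 dogs, by 0.25 in dog 2840, by 0.01 in dog 2841 and by 2.59 in dog 2855. The difference of the group means was 0.36, with a 95% interval from -0.93 to 1.65 (limma, adjusted p = 0.955), and without dog 2855 it was -0.13. Of all probes 0.274% were called, a count of 126 that lay between 37 and 874 in the other settings and was 30, 50 and 57 without dog 2855, 2838 and 2839.

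The calls of the 24 hr interaction depended on single dogs of both groups, sensitized dog 2855 among them. Dog 2855 had the lowest saline site of its group for ADAMTS4 (10.47), MMP9 (7.38) and TIMP1 (13.53), and the largest allergen minus saline difference of each gene (2.59, 1.90 and 1.88). Without that dog the interaction of ADAMTS4 was 2.85 (limma, adjusted p = 0.235) and that of TIMP1 1.80 (adjusted p = 0.155), so that neither passed the limits. ADAMTS4 remained past them when dog 2704 or 2716 was left out and TIMP1 when dog 2704, 2716, 2841 or 2853 was. With any other of the 12 dogs left out, the adjusted p lay between 0.0564 and 0.235 for ADAMTS4 and between 0.0511 and 0.155 for TIMP1. The lowest interaction with a dog left out was 2.85 for ADAMTS4 and 1.80 for TIMP1. Within slide 2, which holds 6 of the 24 hr arrays of all 4 kinds, the interaction of ADAMTS4 was 2.52, and within slide 3, which holds 8, it was 4.99. For TIMP1 these values were 1.21 and 3.21. They rest in part on single dogs. On slide 3 the nonsensitized step was that of dog 2802 alone, -4.13 for ADAMTS4. On slide 2 the allergen sites were those of dog 2841 and dog 2704 alone.

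TIMP1, the inhibitor, followed ADAMTS4 in the nonsensitized dogs with a smaller difference. Their 24 hr saline sites ranged from 14.31 to 15.76 with a median of 15.13, and their allergen sites from 12.85 to 14.31 with a median of 13.70. The 2 kinds of site overlapped only just, since the highest allergen site, of dog 2845, was 14.314 and the lowest saline site, of dog 2716, was 14.305. The allergen site was lower in 6 of 6 dogs, by 0.21 in dog 2716 and by 2.53 in dog 2800. In the group means TIMP1 was lower there by 1.39 (SE 0.36), or 2.63-fold (limma, adjusted p = 0.028). This call was lost without dog 2800 (adjusted p = 0.236), 2802 (0.254), 2845 (0.0639) or 2847 (0.0994). The call of ADAMTS4 in the same comparison was lost without dog 2802 (adjusted p = 0.0658). The other probe of TIMP1 was lower at the allergen site by 1.53 (limma, adjusted p = 0.0245).

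In the sensitized dogs, TIMP1 at the 24 hr saline sites ranged from 13.53 to 15.56 with a median of 14.76. Its allergen sites were at 15.60 in dog 2838, 15.20 in dog 2840, 14.95 in dog 2841, 15.58 in dog 2853 and 15.41 in dog 2855. The allergen site was higher in 4 of 5 dogs, from 0.03 in dog 2853 to 1.88 in dog 2855, and the difference in dog 2841 was -0.04. The difference of the group means was 0.65 (95% interval from -0.10 to 1.41, limma, adjusted p = 0.555). With a dog left out it ranged from 0.41 to 0.81.

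MMP9 passed the limits in neither dog group at 24 hr. The saline sites of the sensitized dogs ranged from 7.38 to 9.50 with a median of 8.29. Their allergen sites were at 9.76 in dog 2838, 9.35 in dog 2840, 9.67 in dog 2841, 10.18 in dog 2853 and 9.28 in dog 2855. The allergen site was higher in 5 of 5 dogs, by 0.68 to 1.90, but the groups overlapped, through the saline site of dog 2853 at 9.50. The difference of 1.22 (95% interval from 0.36 to 2.09) had an unadjusted p of 0.00633 and an adjusted p of 0.216 in limma. Among nonsensitized dogs the gelatinase was higher at the allergen site in 3 and lower in 3 of 6 dogs, with a difference of -0.31 (95% interval from -1.13 to 0.51, limma, adjusted p = 0.929). With a dog left out this difference ranged from -0.47 to -0.14.

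**Figure D2:**
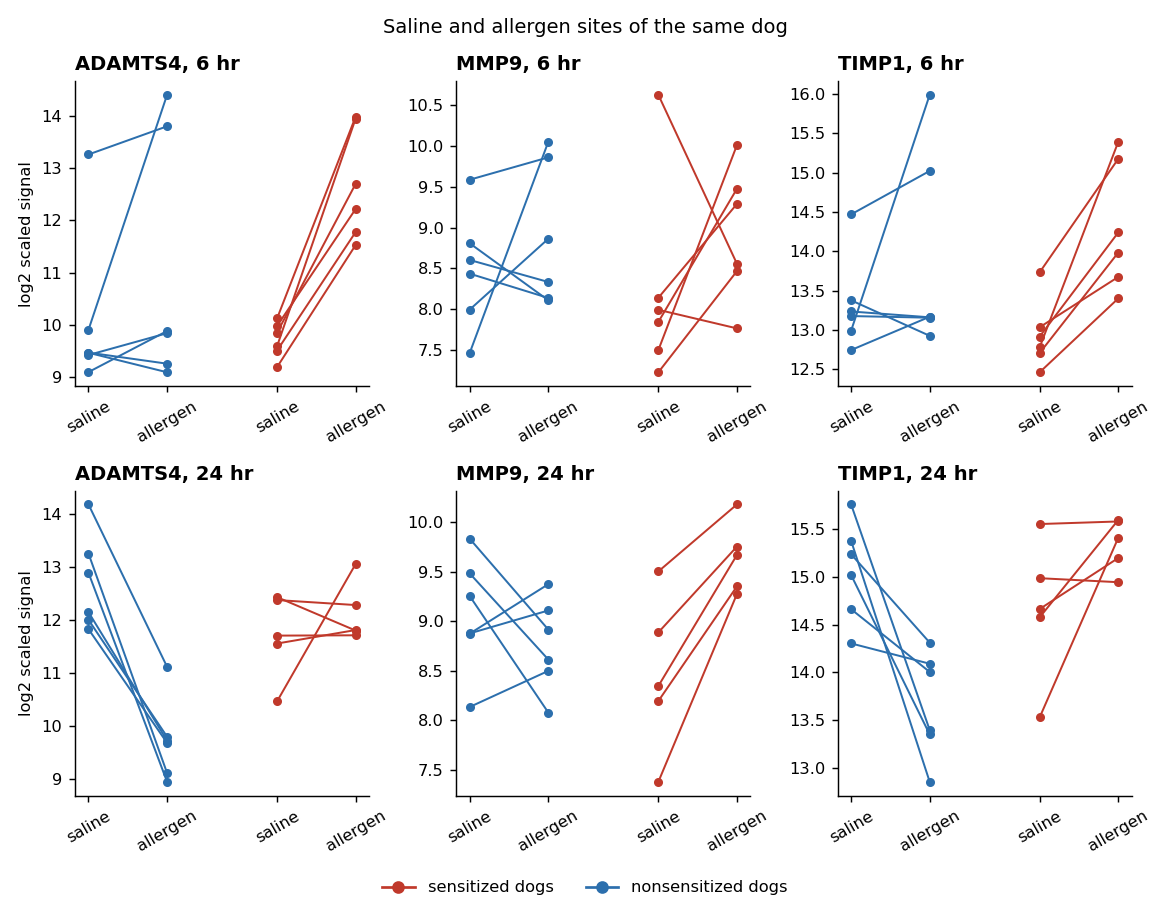
Scaled log2 signal (vertical axes) of ADAMTS4, MMP9 and TIMP1 at the saline and the allergen site of the same dog at 6 hr (upper row) and 24 hr (lower row). Each line is a dog, blue for nonsensitized and red for sensitized dogs. At 24 hr all 6 blue lines of ADAMTS4 and TIMP1 go down and all 5 red lines of MMP9 go up. At 6 hr all 6 red lines of ADAMTS4 and TIMP1 go up.

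Compared between the dog groups at the 24 hr allergen site, ADAMTS4 and TIMP1 were called and MMP9 was not. ADAMTS4 was higher in the sensitized dogs by 2.39 (SE 0.64), or 5.26-fold (limma, adjusted p = 0.00631), and TIMP1 by 1.68 (SE 0.37), or 3.21-fold (adjusted p = 0.00118). For both genes each of the 5 sensitized dogs was above every nonsensitized dog. How many of all probes did so was not counted, here or where other ranges did not overlap. The array that was left out, specimen 14 of dog 2839, had ADAMTS4 at 10.18 on the scale of all 60 arrays, below nonsensitized dog 2847 at 11.11, so that ADAMTS4 would overlap with it included. MMP9 was at 9.65 ± 0.36 (SD, n = 5) against 8.76 ± 0.47 (SD, n = 6), and its difference of 0.88 did not pass the limits (adjusted p = 0.126). Of all probes, 7.14% were called. Slides were not balanced between the dog groups. Slide 1 held 24 hr allergen arrays of nonsensitized but of no sensitized dogs, and slide 4 held arrays of nonsensitized dogs only. With the slide as a block the difference was 2.68 for ADAMTS4 (limma, adjusted p = 0.033) and 1.53 for TIMP1 (adjusted p = 0.0346). The calls of ADAMTS4 and TIMP1 were kept in all 12 other settings and with each of the 12 dogs left out. All of these use arrays on which the study's list was chosen. At the saline site the differences, sensitized minus nonsensitized dogs, were -0.94, -0.65 and -0.37 for ADAMTS4, MMP9 and TIMP1. None passed the limits (limma, adjusted p between 0.361 and 0.588). Without dog 2855 these differences were -0.68, -0.44 and -0.14. Of all probes 2.37%, or 1091, were called at the saline site, but 0 in limma with the slide as a block (7045 had an unadjusted p below 0.05) and 0 in a separate fit of the 24 hr arrays (8430 below 0.05). With a dog left out this count ranged from 0 (without dog 2839, 2840 or 2845, with 8271 to 8359 at an unadjusted p below 0.05) to 2638 (without dog 2838).

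**Figure D3:**
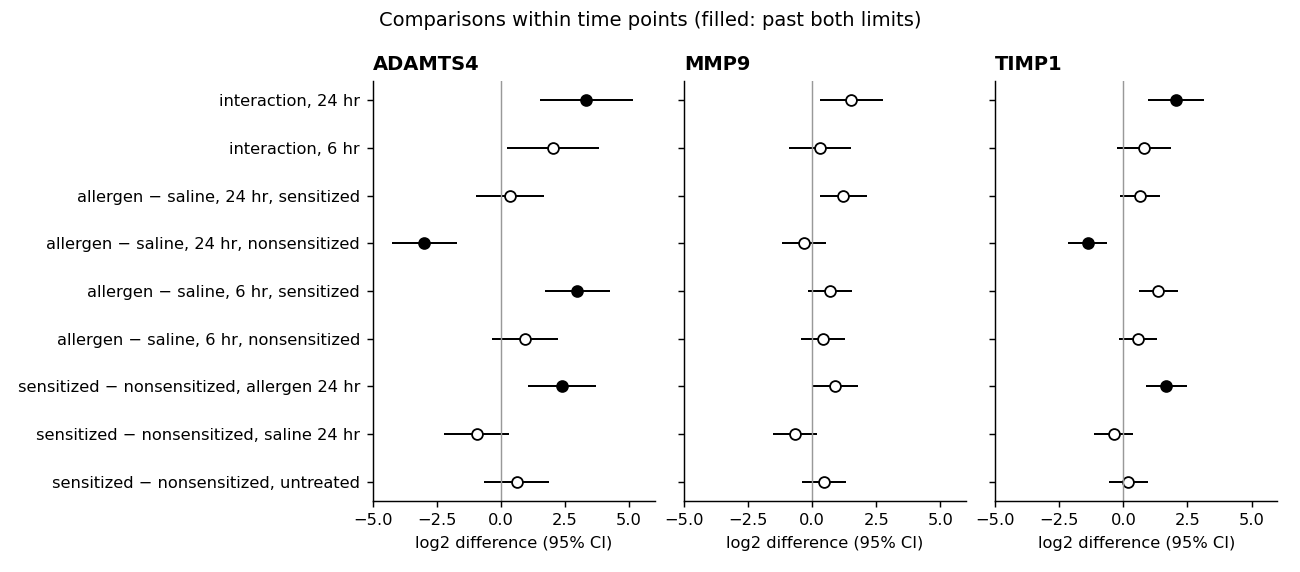
Log2 differences of the brightest probes of ADAMTS4, MMP9 and TIMP1 (horizontal axes) with their 95% confidence intervals in the comparisons within a time point. Filled points passed the limits on adjusted p and fold change. ADAMTS4 passed them in 4 of the 9 comparisons, TIMP1 in 3 and MMP9 in none.

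At 6 hr the sensitized dogs already had more ADAMTS4 at the allergen site. Their saline sites ranged from 9.19 to 10.12 with a median of 9.72, and their allergen sites from 11.53 to 13.98 with a median of 12.46. The 2 kinds of site did not overlap, and the allergen site was higher in 6 of 6 dogs by 2.24 to 4.36. ADAMTS4 rose by 2.98 (SE 0.61), or 7.91-fold (limma, adjusted p = 0.0087), where 0.42% of all probes were called, 193 in number, or 33 without dog 2838 and 54 without dog 2855. Without dog 2855 the difference was 2.71 (adjusted p = 0.109) and without dog 2838 it was no longer past the limits either (adjusted p = 0.122). In a separate fit of the 6 hr arrays the adjusted p was 0.27.

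TIMP1 was higher at the 6 hr allergen site in 6 of 6 sensitized dogs as well, by 0.64 to 2.61. The difference of 1.37 (SE 0.36, 2.59-fold) missed the limit with an adjusted p of 0.0598 in limma. With the dog as a block, which compares the sites of the same animal, its adjusted p was 0.0324. MMP9 was higher in 4 of 6 of these dogs, with a difference of 0.71 (95% interval from -0.12 to 1.53, adjusted p = 0.645) that was 0.35 without dog 2838 and 1.26 without dog 2855. In dog 2855 the allergen minus saline difference of MMP9 was -2.07, because its saline site at 10.63 was the highest of all arrays.

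At 6 hr, 2 nonsensitized animals stood apart. ADAMTS4 at the allergen site was at 14.40 in dog 2704 and at 13.80 in dog 2716, and between 9.09 and 9.88 in the other 4 dogs. TIMP1 was at 15.99 and 15.02 in these dogs against 12.93 to 13.17 in the others, and MMP9 at 10.05 and 9.86 against 8.11 to 8.86. In dog 2716 the saline site was as high, with 13.26 for ADAMTS4, where the other 5 dogs were at 9.09 to 9.90. In dog 2704 the saline site lay within the range of the others for ADAMTS4 and TIMP1 and was the lowest for MMP9 (7.46). The allergen minus saline differences of 0.94, 0.41 and 0.57 for ADAMTS4, MMP9 and TIMP1 did not pass the limits (limma, adjusted p = 0.948, 0.97 and 0.936), and 0.0348% of all probes were called. This count of 16 was 7 to 29 in the other settings and 8 to 22 with a dog left out. Without dog 2704 the differences were 0.23, -0.02 and 0.09.

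The interaction at 6 hr was 2.04 (SE 0.87) for ADAMTS4, with an unadjusted p of 0.0226, and 0.30 for MMP9 and 0.80 for TIMP1. None had an adjusted p below 1 in limma. No probe of the array was called in this comparison, a share of 0%, while 525 had an unadjusted p below 0.05.

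**Figure D4:**
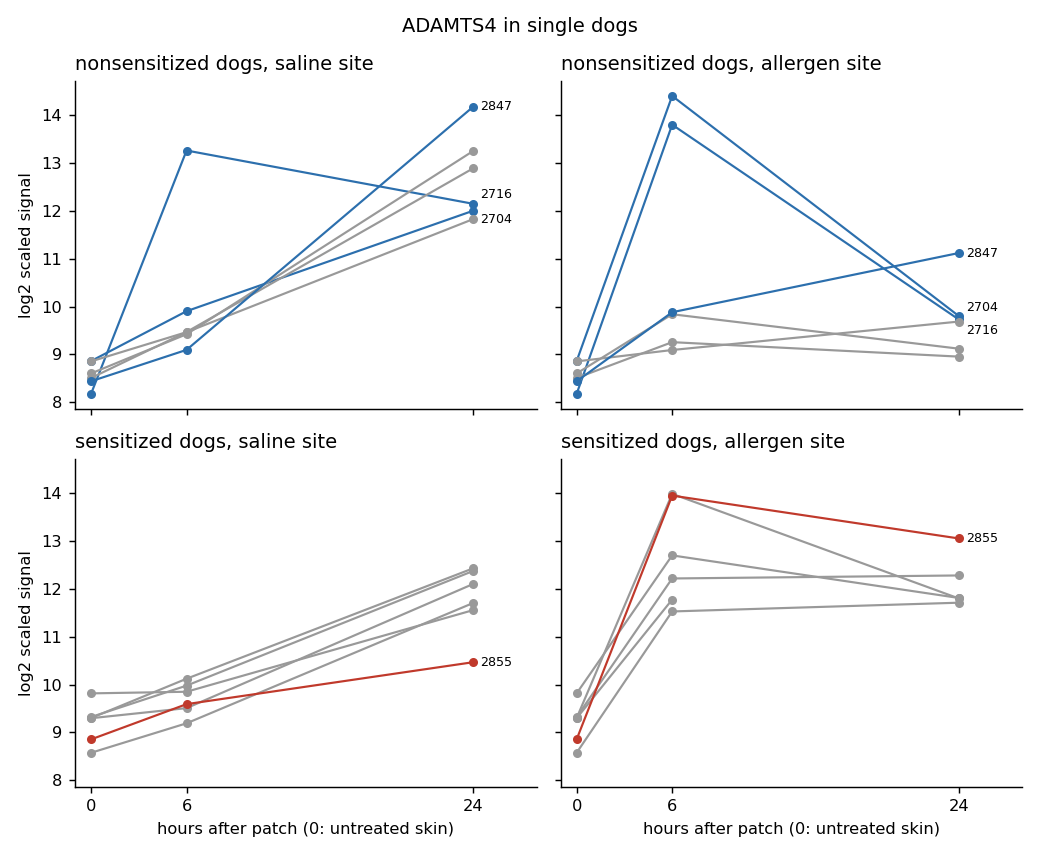
Scaled log2 signal of ADAMTS4 (vertical axes) in untreated skin (0 hr) and at the saline or allergen site at 6 hr and 24 hr (horizontal axes, hours) in single dogs. Each line is a dog, and dogs 2704, 2716, 2847 and 2855 are coloured and numbered. The line of sensitized dog 2839 ends at 6 hr at the allergen site. At the allergen site, nonsensitized dogs 2704 and 2716 were at 14.40 and 13.80 at 6 hr and at 9.80 and 9.73 at 24 hr.

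Against untreated skin, all 3 genes rose with time at some patch sites, saline sites included. At the 24 hr saline site, ADAMTS4 was higher in 6 of 6 nonsensitized dogs by 2.97 to 5.73 and rose by 4.14 (SE 0.61), or 17.6-fold (limma, adjusted p = 2.73e-07). In the sensitized dogs it was higher in 6 of 6 by 1.61 to 3.13 and rose by 2.58, or 5.97-fold (adjusted p = 0.00115). TIMP1 rose at this site by 2.43 in nonsensitized (5.38-fold, adjusted p = 2.39e-07) and by 1.86 in sensitized dogs (3.64-fold, adjusted p = 0.000107). MMP9 rose in the nonsensitized dogs by 1.44 (2.71-fold, limma, adjusted p = 0.00274). In the sensitized dogs it was 0.34 higher (adjusted p = 0.559), and 0.16 to 0.58 higher with a dog left out. The shares of all probes called were 22.7% in nonsensitized and 9.51% in sensitized dogs.

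At the 24 hr allergen site of the sensitized dogs, all 3 genes were called against untreated skin. ADAMTS4 rose by 2.94 (7.65-fold, limma, adjusted p = 0.000313), MMP9 by 1.56 (2.95-fold, adjusted p = 0.00338) and TIMP1 by 2.52 (5.73-fold, adjusted p = 9.81e-07), where 13.8% of all probes were called. In the nonsensitized dogs ADAMTS4 was 1.16 higher than in untreated skin and did not pass the limits (adjusted p = 0.119), although it was higher in 6 of 6 dogs. MMP9 rose there by 1.13 (adjusted p = 0.0213) and TIMP1 by 1.03 (adjusted p = 0.0157), with 17% of all probes called. Without dog 2845 the adjusted p of TIMP1 was 0.0617, and without dog 2716, 2845 or 2847 that of MMP9 was 0.0524, 0.0583 or 0.0587.

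At 6 hr, no gene of the 3 was called at the saline site in either dog group, where 2.66% of all probes were called in sensitized and 2.27% in nonsensitized dogs. ADAMTS4 was 0.51 higher than in untreated skin in the sensitized dogs, and higher in 6 of 6 by 0.03 to 0.82. In the nonsensitized dogs it was 1.53 higher, and higher in 6 of 6 by 0.61 to 5.08, and without dog 2716 it was 0.82 higher. At the 6 hr allergen site of the sensitized dogs ADAMTS4 rose by 3.50 (11.3-fold, limma, adjusted p = 0.000164) and TIMP1 by 1.48 (2.79-fold, adjusted p = 0.00341), and MMP9 was 0.84 higher (adjusted p = 0.144), with 3.88% of all probes called. This count of 1783 was 999 without dog 2855 and 2913 without dog 2839. In the nonsensitized dogs ADAMTS4 rose by 2.47 (adjusted p = 0.0103) and TIMP1 by 1.27 (adjusted p = 0.0243), with 1.61% called, 739 probes, or 188 without dog 2704 and 281 without dog 2716. Without dog 2704 the adjusted p was 0.126 for ADAMTS4 and 0.242 for TIMP1, and without dog 2716 it was 0.0789 and 0.137. MMP9 was 1.26 higher there with an adjusted p of 0.0515, and with 0.0268 when the dog was a block. Its other probe rose by 1.35 (adjusted p = 0.0403).

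The order of the group means of ADAMTS4 began with untreated skin (8.57 and 9.19 in nonsensitized and sensitized dogs) and ended with the 6 hr allergen site of the sensitized (12.69) and the 24 hr saline site of the nonsensitized dogs (12.71). The last pair did not differ beyond their SD of 1.07 and 0.90. TIMP1 was highest at the 24 hr allergen site of the sensitized (15.35) and the 24 hr saline site of the nonsensitized dogs (15.06), with SD of 0.28 and 0.52. MMP9 was highest at the same site of the sensitized dogs (9.65), followed by the 24 hr saline site of the nonsensitized dogs (9.08), with SD of 0.36 and 0.59. These top groups were not compared in a test, and each difference between them lay within the sum of their SD.

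The comparisons with untreated skin carry a limit. Of the 8 array slides, only 1 held both 0 hr and 24 hr arrays, so that time and slide are hard to tell apart. With the slide as a block, the 24 hr saline rise of ADAMTS4 was 3.79 in nonsensitized (adjusted p = 0.159) and 2.45 in sensitized dogs (adjusted p = 0.314). The rises of MMP9 in nonsensitized dogs shrank from 1.44 to 0.51 at the 24 hr saline site (adjusted p = 0.844) and from 1.13 to 0.12 at the 24 hr allergen site (adjusted p = 0.973), and its rise at the 24 hr allergen site of sensitized dogs from 1.56 to 1.12 (adjusted p = 0.371). Of the member calls against untreated skin only that of TIMP1 at the 24 hr allergen site of sensitized dogs was kept (2.46, adjusted p = 0.011). The counts over all probes moved too. With the slide as a block, 1532 probes in place of 10444 were called at the 24 hr saline site of nonsensitized dogs, 964 in place of 7817 at their 24 hr allergen site, and 3726 in place of 4370 at the 24 hr saline site of sensitized dogs. At the 6 hr saline sites, limma then called 0 in place of 1221 probes in sensitized and 0 in place of 1043 in nonsensitized dogs, with 2468 and 2224 at an unadjusted p below 0.05. With a dog left out, these 2 counts were lowest at 521 (without dog 2855) and 560 (without dog 2716).

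Other matrix genes were counted in the same comparisons. Lists of matrix metalloproteinases, ADAM and ADAMTS proteases, metalloproteinase inhibitors, plasminogen activators with serpins, cathepsins, and proteoglycans and other substrates held 95 genes beside the members, and 18 of them could be named on the array and passed the filter. In the 24 hr interaction 1 of the 18 was called, in the higher direction, beside 0.94% of all probes. Their median was 0.04, against 0.00 over all probes. The 1 gene was CTSC (cathepsin C, which activates granule proteases of leukocytes) with 0.95 (SE 0.22, 1.93-fold, limma, adjusted p = 0.0191). Among the other proteases and inhibitors, MMP3 (stromelysin) had -0.05 (SE 0.59), ADAM9 0.18 (SE 0.12), TIMP2 -0.29 (SE 0.25) and RECK, a membrane-bound inhibitor, -0.17 (SE 0.20), and none passed the limits.

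Between the 24 hr allergen and saline sites, limma called 0 of the 18 genes in the nonsensitized dogs and 0 of 18 in the sensitized dogs, while 3 in each had an unadjusted p below 0.05. Over all 45972 probes 0.766% and 0.274% were called, and 5374 and 5147 had an unadjusted p below 0.05. With the dog as a block, a count added after the data were seen, limma called 2 of 18 in the sensitized dogs, CTSC (0.60, adjusted p = 0.00574) and CTSS, cathepsin S (0.94, adjusted p = 0.00613), beside 1.08% of all probes. In the nonsensitized dogs it called 0 of 18, with 4 at an unadjusted p below 0.05, beside 1.35%. At 6 hr 0 of 18 were called in the sensitized dogs, with 1 below 0.05 unadjusted, beside 0.42% of all probes called and 4376 below 0.05. CTSC was the 1 of 18 called between the dog groups at the 24 hr allergen site, where it was 0.72 higher in the sensitized dogs (adjusted p = 0.00107), beside 7.14% of all probes. Against untreated skin, 4 of the 18 rose and 1 fell at the 24 hr saline site of the nonsensitized dogs, where 22.7% of all probes were called. The 4 were CTSD (1.07), CTSC (1.01), PLAU, the urokinase (0.98), and the collagen chaperone SERPINH1 (0.60), and the 1 was ACAN, aggrecan, a substrate of ADAMTS4, which fell by 0.75. At the 24 hr saline site of the sensitized dogs 3 rose, MMP3 (1.23), CTSD (0.85) and PLAU (0.72), beside 9.51% of all probes. At the 24 hr allergen site 5 rose and 1 fell in the nonsensitized dogs, beside 17% of all probes. They were CTSD (1.11), PLAU (0.71), CTSS (0.70), SERPINH1 (0.68) and CTSC (0.66), and ACAN fell by 0.71. In the sensitized dogs 3 rose there, CTSC (1.14), CTSS (0.97) and CTSD (0.77), beside 13.8%. The collagen genes COL1A1 and COL1A2 and the proteoglycan gene DCN (decorin) had interactions of 0.23 (SE 0.49), 0.04 (SE 0.33) and -0.10 (SE 0.26) at 24 hr, none past the limits.

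**Figure D5:**
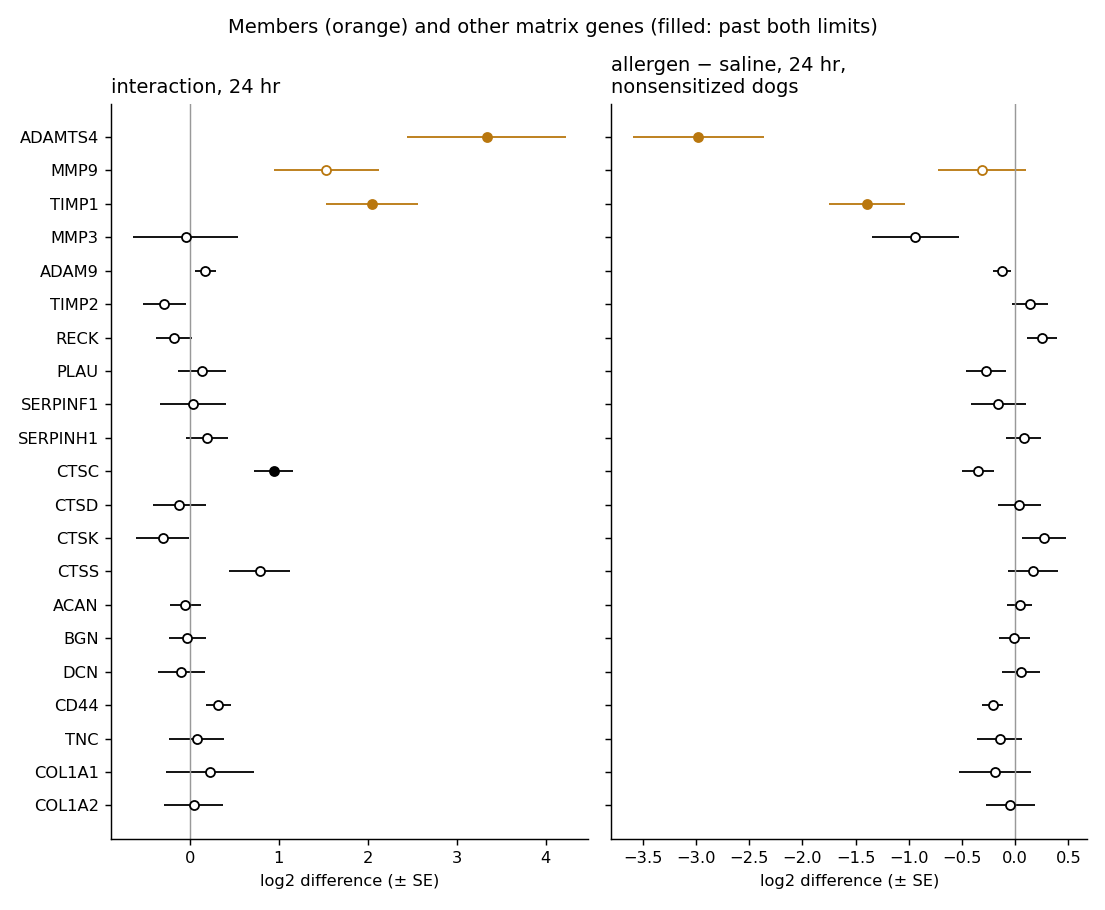
Log2 differences with their SE (horizontal axes) of ADAMTS4, MMP9 and TIMP1 (orange) and of the other 18 matrix genes named on the array (black), for the 24 hr interaction (left) and for allergen minus saline at 24 hr in nonsensitized dogs (right). Filled points passed the limits. Left, ADAMTS4, TIMP1 and CTSC are filled, and right, ADAMTS4 and TIMP1.

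A few further relatives and substrates are named only in the study's own list of 24 hr differences. That list was chosen on these arrays, so that their direction is no independent evidence and their values are given as a description. ADAMTS1, a close relative of ADAMTS4, had group means at 24 hr in nonsensitized dogs of 10.52 at the saline and 9.24 at the allergen site, and of 10.28 and 10.37 in sensitized dogs. ADAMTS5, the other main aggrecanase, had 10.72 and 9.24 against 10.77 and 10.50. VCAN, versican, a substrate of these enzymes, had 9.80 and 8.22 against 9.38 and 9.46. TNFAIP6, a hyaluronan-binding protein induced in inflammation, had 10.92 and 8.38 against 10.94 and 11.02. In the nonsensitized dogs all 4 had their lower mean under allergen. In the sensitized dogs the mean of ADAMTS5 was lower there too, by less, and those of the other 3 were slightly higher. MMP25, a membrane-bound metalloproteinase of leukocytes, had 5.02 and 5.00 against 4.75 and 5.45, close to the dim end of the array.

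Of the cytokines and enzymes that are known to go with the induction of matrix proteases, 6 of 9 were named through the RefSeq table and tested (IL1A, TNF, IL6, PTGS2, CCL2 and CXCL8). In the 24 hr interaction 2 of the 6 were called, beside 0.94% of all probes. IL6 had 2.91 (7.50-fold, limma, adjusted p = 0.0406) and the monocyte chemokine CCL2 2.36 (5.13-fold, adjusted p = 0.0361). Both are in the study's list of 24 hr differences, as is CTSC above, so that their direction and this count are no independent evidence. Both also fell at the allergen site of the nonsensitized dogs at 24 hr, IL6 by 2.52 (adjusted p = 0.00481) and CCL2 by 2.21 (adjusted p = 0.0015). At 6 hr in the sensitized dogs 3 of the 6 rose: CCL2 by 2.85, IL6 by 2.78 and PTGS2, the inducible cyclooxygenase, by 2.56, beside 0.42% of all probes. With the dog as a block CXCL8, the neutrophil chemokine, was called as well (3.09, limma, adjusted p = 0.0176), beside 0.89% of all probes in that fit. The median of the 6 was 1.33 in the 24 hr interaction, 2.67 at 6 hr in the sensitized dogs and -0.43 at 24 hr in the nonsensitized dogs, where the medians over all probes were within 0.01 of 0.

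Over the 59 arrays, the genes most like ADAMTS4 among 1285 named genes were IL6 (r = 0.96), ADAMTS1 (0.95), ICAM1 (0.94), CCL2 (0.93) and CCL8 (0.93). The genes most like TIMP1 were UPP1 (0.95), LILRB2 (0.94), FCGR1A (0.94), GMFG (0.94) and CD14 (0.93). Those most like MMP9 were CCL4 (0.77), IL18BP (0.77), CASP4 (0.76), GPR65 (0.76) and BCL2A1 (0.76). Among the members themselves, r was 0.88 for ADAMTS4 and TIMP1, 0.75 for MMP9 and TIMP1 and 0.64 for ADAMTS4 and MMP9. After the mean of each group was taken off, these values were 0.78, 0.71 and 0.52. Of these 15 genes 9 are named only through the study's list, which names 507 of the array identifiers and was chosen for 24 hr differences on these arrays, so that the genes compared were in part picked for such differences. The arrays share dogs and a scaling, and the values are a description.

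Markers of other cell types were compared in the same way. Genes named through the RefSeq table were tested. Of 13 neutrophil markers these were 4. S100A8, a calcium-binding protein of neutrophils that inflamed keratinocytes also make, was 2.83 higher in the 24 hr interaction (SE 0.95, limma, adjusted p = 0.118) and 2.56 higher in sensitized than in nonsensitized dogs at the 24 hr allergen site (adjusted p = 0.00639). The other 3, CXCR2, ELANE and CAMP, were at 7.23 (log2) or lower on every array and none was called in any comparison. The summed level of the 4 markers, nearly all of it S100A8 with group means from 12.56 to 17.37 (log2), ranged from 103367 to 218217 at the 24 hr allergen site of the sensitized dogs. It was 19127 to 55575 at their saline site, 12011 to 89527 at the allergen and 15499 to 91451 at the saline site of the nonsensitized dogs. The lowest of these markers on any array was at 4.89, and the part of neutrophils in the levels of MMP9 was not tested.

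Of 6 macrophage markers CD163 was named through the RefSeq table, with 0.97 in the 24 hr interaction (adjusted p = 0.216). In the nonsensitized dogs its level ranged at 24 hr from 769 to 2230 at the saline and from 474 to 1132 at the allergen site, a difference of -0.91 (limma, adjusted p = 0.0769) in the direction of ADAMTS4 and TIMP1. In the sensitized dogs it ranged from 504 to 1439 and from 518 to 1369, with a difference of 0.06. CD14, another of the 6, is named only through the study's list, and its group means at 24 hr were 9.20 at the saline and 8.57 at the allergen site of nonsensitized dogs and 8.80 and 9.48 in sensitized dogs. Of 6 endothelial markers 3 were tested. SELE, the adhesion molecule of activated vessels and also in that list, was called in the 24 hr interaction (2.47, limma, adjusted p = 0.0188), beside 0.94% of all probes. The 3 fibroblast markers had a median of 0.04, the 2 T cell markers of 0.10 and the 3 mast cell markers of 0.66 in this comparison, with none called. Of the 4 keratinocyte markers 1 was called, beside the same 0.94% of all probes. It was TGM1, which the list holds too, with -0.59 (limma, adjusted p = 0.033), and the median of the 4 was -0.55. The muscle marker DES had 0.48 (adjusted p = 0.89). Their part in the levels of ADAMTS4 and TIMP1 was not tested.

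Specimen 14 is shown on the scale of a fit of all 60 arrays. It had 10.18 for ADAMTS4, where the other 5 dogs at the 24 hr allergen site had 11.70 to 13.04, and 12.09 at the saline site of the same dog. For MMP9 it had 9.03 against 9.26 to 10.17, and for TIMP1 16.63 against 14.94 to 15.59, so that it lay outside the range of its group for each gene. With this array included, the interaction at 24 hr was 3.02 for ADAMTS4 (limma, adjusted p = 0.0533) and 2.26 for TIMP1 (adjusted p = 0.013).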

How the data were processed

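Biopsies of 12 dogs were hybridised to 60 one-colour Agilent arrays. Per the labels, the authors scanned and extracted them with Agilent Feature Extraction 10.7.3.1, and the deposited files hold background-corrected signal intensity per spot, not yet scaled between arrays. The deposited series table holds signals of the same arrays, which were taken to log2 and used as an alternative.

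Groups came from the labels. Specimen 14 was left out as in the study's methods. The 4588 values with an outlier flag were dropped. Spots had to be called above background in 5 or more arrays of any group (47229 spots passed), and the signals were scaled by a reimplementation of variance stabilization (trimming quantile 0.9, on a log2 scale), with spots of a probe averaged. Limma 3.58.1 (R 4.3.3) estimated all 10 group means in 1 model without pairing (49 residual and 3.517 prior degrees of freedom), with Benjamini-Hochberg adjustment over 45972 probes. Calls needed an adjusted p below 0.05 and a 1.5-fold difference. The procedure was tested on simulated data.

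Each dog is a replicate and appears in all groups of its kind, so that arrays pair by animal. As a check, deviations from the group means correlated with a median r of 0.386 within animals (116 pairs of arrays) and of -0.044 between animals (1595 pairs).

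The members and gene lists were chosen with earlier results of these data known. A gene was represented by its brightest probe. Of list genes, those named through the RefSeq gene table were counted, with values for up to 5 per list and comparison, and each member's 5 most correlated named genes were given. The number of arrays limits the precision. Alternatives were scaling, background correction, filters, dog or slide as a block, separate fits per time point, probe averaging and each dog left out. Sequences of the 3 genes were not used here. A gene of the lists is not reported here and was left out of their counts.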

Additional observations from a re-analysis of the deposited data

Results flagged for a closer look

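In 30 combinations of gene and group, the highest or lowest dog was compared with the nearest of the others, and 3 had a dog that stood apart. This count was not set against chance. ADAMTS4 at the 6 hr saline site of the nonsensitized dogs was at 13.26 in dog 2716 and at 9.90 in the next, a gap of 0.806 of the group's range. TIMP1 was at 14.47 in the same array and at 13.38 in the next (0.633 of the range). MMP9 at the 6 hr saline site of the sensitized dogs was at 10.63 in dog 2855 and at 8.14 in the next (0.731 of the range).

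The allergen minus saline difference at 24 hr differed between the dog groups, by the interaction in limma, for ADAMTS4 (3.34, adjusted p = 0.043) and TIMP1 (2.05, adjusted p = 0.0331).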

How the results depend on the processing

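Of 1242 values recomputed for the 3 genes, 1152 kept their direction and their side of the limits, 59 lost a call, 19 gained a call and 12 turned in direction. The calls of ADAMTS4 and TIMP1 between the dog groups at the 24 hr allergen site were kept in all 12 settings (adjusted p up to 0.033 and 0.0346) and with each of the 12 dogs left out. All p-values are from limma, and the cause of a lost call was not tested unless stated.

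The 24 hr interaction of ADAMTS4 missed the limits with all 60 arrays (3.02, adjusted p = 0.0533), with scaling to the 75th percentile (3.35, 0.0535), with the unscaled series values (3.43, 0.0823) and with no filter on dim probes (3.39, 0.0732). That of TIMP1 missed them with the unscaled values (2.11, 0.0589) and with no filter (2.07, 0.0554). Within slide 2 and slide 3 the interaction, with no test and with some sites from a single dog, was 2.52 and 4.99 for ADAMTS4, 1.65 and 2.20 for MMP9, and 1.21 and 3.21 for TIMP1. In the whole array, 432 probes were called in this comparison, against 765 with all 60 arrays, 1149 with array weights, 85 with the unscaled values, 237 with no filter, 1628 with the dog as a block, 1424 with the dog as a random block and 1046 with the slide as a block. Allergen minus saline at 24 hr in nonsensitized dogs had 352 calls, with 619 and 598 for the dog as a block and random block, and at 6 hr in sensitized dogs 193, with 374 for array weights, 409 and 415 for the dog, 384 and 315 for the slide and 12 in a separate fit. At the 24 hr allergen site 3284 differed between the dog groups, with 6344 for all 60 arrays, 2087 for normexp, and 1747 and 2110 for the slide as a block and random block. Over the settings, sensitized dogs had 37 (unscaled) to 874 (array weights) calls between the 24 hr sites against 126, with 772 for all 60 arrays, 498 and 384 for the dog, 364 for the slide and 70 in a separate fit. The 24 hr saline sites had 0 (slide, separate fit) to 3376 (array weights) against 1091. Against untreated skin, sensitized dogs had 0 (slide) to 3410 against 1221 at the 6 hr saline, 189 (slide) to 3695 against 1783 at the 6 hr allergen, 2480 to 9798 against 4370 at the 24 hr saline and 4187 to 10556 against 6324 at the 24 hr allergen site, and nonsensitized dogs 0 (slide) to 2678 against 1043, 7 (slide) to 1264 against 739, 1532 (slide) to 23810 (unscaled) against 10444, and 964 (slide) to 21708 (unscaled) against 7817.

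With the dog as a replicate block the interaction was 3.30 for ADAMTS4 (adjusted p = 0.0148) and 2.01 for TIMP1 (0.0143). This pairing changed the call for TIMP1 at 6 hr in sensitized dogs (1.37, 0.0324) and for MMP9 at the 6 hr allergen site of nonsensitized dogs against untreated skin (1.26, 0.0268), and no other call of the brightest probes. Of the 18 matrix genes it called 2 in place of 0 between the 24 hr sites of sensitized dogs, and no count of matrix genes or of the 6 cytokines above 0 moved by over 1.5 times. As a random block the dog gave 1.37 (0.0176) and 1.26 (0.0191) for these, and 1.53 (0.0471) for ADAMTS4 at the 6 hr saline site of nonsensitized dogs against untreated skin.

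The allergen minus saline rise of ADAMTS4 at 6 hr in sensitized dogs was 2.98 (0.27) in a separate fit of that time point. That of TIMP1 passed the limits with array weights (1.39, 0.00579), unscaled values (1.40, 0.0484), the slide as a block (1.49, 0.029) and as a random block (1.42, 0.0288). MMP9 passed them at 24 hr in sensitized dogs with array weights (1.40, 0.0345).

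Against untreated skin, the slide as a block ended calls of ADAMTS4 in sensitized dogs at the 6 hr allergen (2.56), 24 hr saline (2.45) and 24 hr allergen site (2.93), and in nonsensitized dogs at the 6 hr allergen (2.05) and 24 hr saline site (3.79). It ended calls of TIMP1 in sensitized dogs at the 6 hr allergen (1.23) and 24 hr saline site (1.83), and in nonsensitized dogs at the 6 hr allergen (0.78), 24 hr saline (2.36) and 24 hr allergen site (0.99). For MMP9 it ended those at the 24 hr allergen site of sensitized dogs (1.12) and at the 24 hr saline (0.51) and allergen site (0.12) of nonsensitized dogs. It turned the uncalled differences of sensitized dogs at the 6 hr saline site (-0.63 for ADAMTS4, -0.17 for MMP9, -0.26 for TIMP1) and of MMP9 at the 24 hr saline site (-0.19). As a random block the slide ended calls in nonsensitized dogs of ADAMTS4 (2.35) and TIMP1 (1.09) at the 6 hr allergen site, of MMP9 at the 24 hr saline (1.19) and allergen site (0.83) and of TIMP1 at the 24 hr allergen site (0.95), and gave -0.01 for TIMP1 at the 6 hr saline site of sensitized dogs. Array weights gave 1.37 (0.0335) and unscaled values 1.70 (0.0135) for ADAMTS4 at the 24 hr allergen site of nonsensitized dogs, past the limits, and array weights gave -0.16 for MMP9 at the 6 hr saline site of sensitized dogs. For TIMP1 at the 6 hr allergen site of nonsensitized dogs unscaled values gave 1.28 (0.0507), and for MMP9 there the mean over its probes gave 1.30 (0.0452). With unscaled values the median of all probes against untreated skin at 24 hr was 0.21 to 0.51, where it was -0.025 to 0.042 with scaled values.

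With each dog left out in turn, 15 (without dog 2855) to 757 probes (without dog 2704) were called in the 24 hr interaction, which ranged from 2.85 to 3.55 for ADAMTS4 and from 1.80 to 2.29 for TIMP1. Allergen minus saline ranged at 24 hr from -0.13 to 0.57 (ADAMTS4, sensitized), from -3.15 to -2.75 (ADAMTS4, nonsensitized) and from -1.63 to -1.17 (TIMP1, nonsensitized), and at 6 hr from 2.71 to 3.13 (ADAMTS4, sensitized), from 1.12 to 1.52 (TIMP1, sensitized) and from -0.02 to 0.63 (MMP9, nonsensitized). The 6 hr interaction of MMP9 ranged from -0.07 to 0.85. Against untreated skin, the 6 hr allergen site of nonsensitized dogs ranged from 1.84 to 2.92 for ADAMTS4, from 0.91 to 1.48 for MMP9 and from 0.83 to 1.45 for TIMP1, and their 24 hr allergen site from 1.07 to 1.32 for MMP9 and from 0.92 to 1.19 for TIMP1. The 6 hr saline site of sensitized dogs ranged from -0.31 to 0.50 for MMP9 and from -0.02 to 0.24 for TIMP1.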
